A study of Homo sapiens with 6 samples.

Results

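The genes described here are 36 genes of protein folding in the endoplasmic reticulum (ER) and of the unfolded protein response: stress sensors and their transcription factors, chaperones, disulphide isomerases, the degradation machinery and the translocon. They were listed by symbol for their known roles, with earlier results of these data known, and all 36 are among the 23368 symbols of a raw count table. The cells were HCT116, an established human colon cancer line, given either an siRNA that targets ADNP (siADNP) or a control siRNA (siControl). Each group has 3 RNA-seq libraries, made with a Nugen system from 150 ng of Trizol-purified, DNase-treated total RNA. Both groups are the same line, with no other treatment named in the labels. No source used here gives the siRNA sequences or the time after transfection. The replicates are described as biological, but separate cultures are not named. The p-values therefore reflect only how far these libraries vary, part of which may be technical. ADNP encodes a zinc finger and homeodomain protein of chromatin.

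Secretory and membrane proteins fold in the ER with help from HSPA5 (BiP), the lectins calnexin and calreticulin and the disulphide isomerases, and those that fail are exported and degraded. When unfolded proteins build up, the sensor ERN1 (IRE1) splices XBP1 mRNA into the form that encodes an active transcription factor, ATF6 is cut in the Golgi to release another, and EIF2AK3 (PERK) slows translation while favouring ATF4. ATF6 and spliced XBP1 act through promoter elements that end in CCACG. Counts per gene do not separate spliced from unspliced XBP1, nor do they measure cleaved ATF6, so only total mRNA is described here.

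Reads assigned to genes numbered 7396771 to 10265175 per library. The share of reads outside annotated features was 54.4% to 55.7% with siADNP and 53.5% to 54.3% with siControl, and the share assigned to genes 26.4% to 27.2% and 27.7% to 28.3%. Neither share overlapped between the groups, and their part in the results that follow was not tested. ADNP mRNA was at 46.7, 55.3 and 59.8 CPM (a gene's reads relative to the scaled library total) in the siADNP libraries and at 171, 155 and 167 CPM in the siControl libraries (log2 fold change -1.61 ± 0.07 (SE), edgeR quasi-likelihood adjusted p = 2.62e-20). Of 9 colon epithelial markers, 7 had reads, with a summed level of 3018 to 3229 CPM with siADNP and 3127 to 3191 CPM with siControl, while CDX1 and VIL1 were at 0. KRT8 (mean 1302 CPM with siADNP and 1297 CPM with siControl) and KRT18 (988 and 968 CPM) made up most of that sum. CDX2 was at a mean of 8.49 and 7.41 CPM and KRT20 at 1.08 and 0.724 CPM. Fibroblast markers summed to 7.32 to 10.3 CPM and 7.38 to 8.20 CPM, nearly all of it COL1A1, with DCN and LUM at 0. Blood cell markers summed to less than 1 CPM in every library.

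With siADNP, 5 of 9 chaperones and cochaperones and 4 of 8 disulphide enzymes rose modestly while 1 of each fell, 7 of 8 degradation genes were not called, and XBP1 fell. Of the 35 members with enough reads to test, 12 rose, 5 fell and 18 were not called at an edgeR adjusted p under 0.05, where 14.6% of all 12489 tested genes rose and 13.7% fell, 28.3% in either direction. As a share of the members tested that is 34.3% higher and 14.3% lower. In bulk libraries, more or fewer cells of a type and more or less RNA per cell cannot be told apart. The changes were small: the rises ran from 1.10-fold to 1.33-fold, and the genes that fell stood at 74.9% to 86.1% of control. The groups did not overlap in any of the 17 called members. The same was true of DERL1 (siADNP above) and DNAJC3 (siADNP below), which were not called, making 13 members above and 6 below, against 20.1% and 20.7% of all tested genes. The median log2 fold change was 0.04 over the tested members and -0.00128 over all tested genes. DERL3, a derlin of degradation, had 0 reads in all libraries, which allows a level of up to 0.295 to 0.407 CPM (3 reads, counting error only). DERL3 overlaps the gene SMARCB1, and that limit does not cover reads left uncounted or assigned elsewhere because of the overlap.

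**Figure D1:**
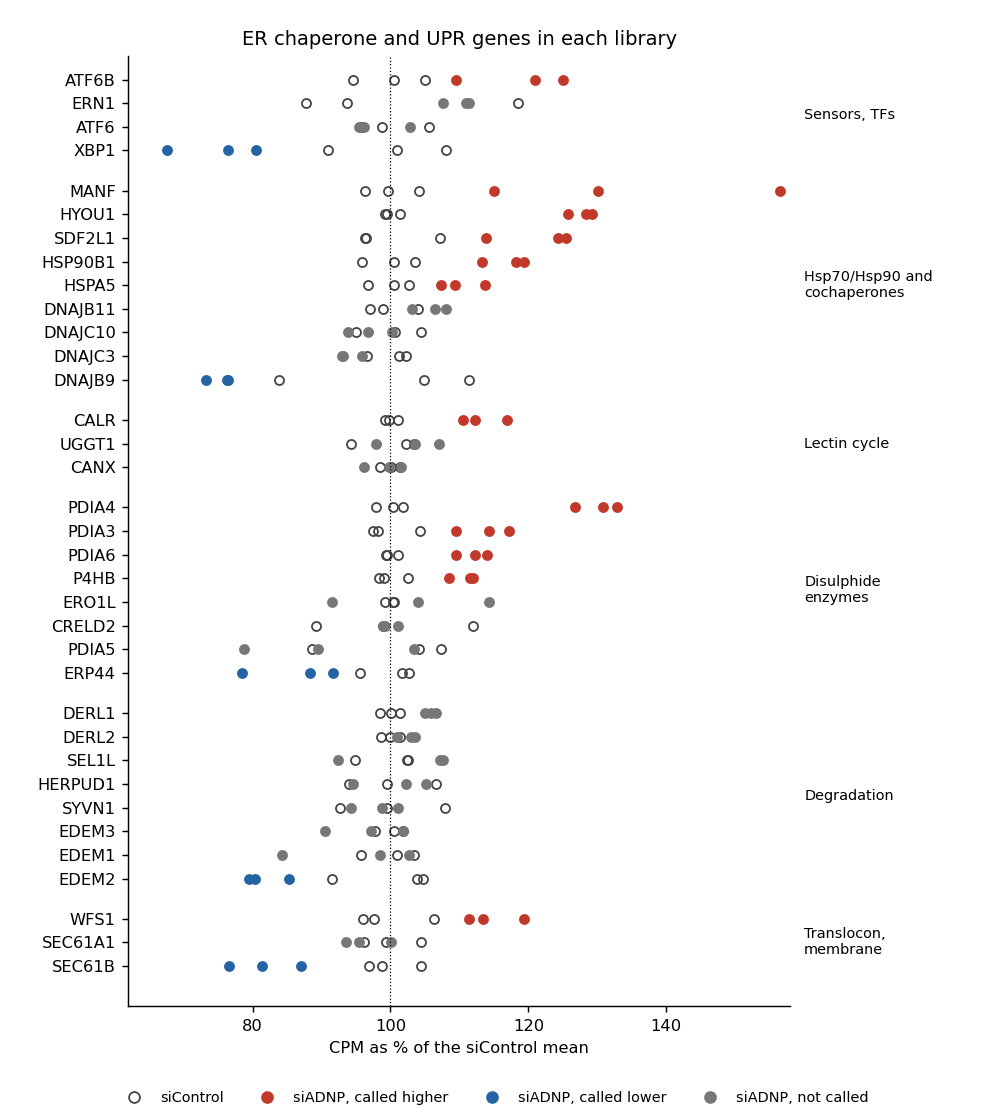
Level of each of the 35 tested members in each library, as CPM in percent of the siControl mean, grouped by role. Open circles are the 3 siControl libraries and filled circles the 3 siADNP libraries, coloured by the edgeR call; in the degradation group only EDEM2 was called, while 5 of the 9 chaperones and cochaperones lie to the right of their controls.

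The promoters show which members carry the letters of the ER stress element. RefSeq promoter windows on GRCh38.p14, 250 bases before to 50 after an annotated start, were found for 33 members, while PDIA3, DERL1 and DERL3 had none. The ER stress element (ERSE) was searched as CCAAT and CCACG with any 9 bases between them, its variant ERSE-II as ATTGG and CCACG with any 1 base between them, and the unfolded protein response element (UPRE) as TGACGTGG, on both strands. All include CCACG or its reverse complement, and some windows hold matches that overlap. ERSE was in the windows of 7 members (21.2%) and in 25 of all 27305 genes with a window (0.0916%), so members made up 7 of those 25 genes. ERSE-II was in 3 members and 19 of all genes (0.0696%), and UPRE in 2 members and 253 of all genes (0.927%). The members were listed for their known roles in ER folding and stress, so these shares are not independent of that choice. A match describes letters, not binding, and no match says only that these letters are not in the window.

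The stretches below hold the matches of members that rose, fell or were not called, read 5′ to 3′ along the gene from GRCh38.p14, with the fixed bases of ERSE, ERSE-II or UPRE in capitals (CGTGG is CCACG read on the opposite strand). They are shown because the same element stands before genes that moved differently.
HSPA5 (rose; minus strand, chr9:125241376-125241424): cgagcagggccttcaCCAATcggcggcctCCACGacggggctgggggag
CALR (rose; plus strand, chr19:12938369-12938417): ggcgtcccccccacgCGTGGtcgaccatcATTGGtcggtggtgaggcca
PDIA6 (rose; minus strand, chr2:10812838-10812886): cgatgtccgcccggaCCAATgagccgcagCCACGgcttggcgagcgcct
SDF2L1 (rose; plus strand, chr22:21642099-21642139): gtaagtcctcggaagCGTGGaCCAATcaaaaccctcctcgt
HYOU1 (rose; minus strand, chr11:119057259-119057408): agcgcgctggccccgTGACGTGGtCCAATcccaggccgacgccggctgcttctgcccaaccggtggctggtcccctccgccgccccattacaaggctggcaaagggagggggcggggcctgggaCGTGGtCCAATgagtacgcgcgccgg
XBP1 (fell; minus strand, chr22:28800588-28800636): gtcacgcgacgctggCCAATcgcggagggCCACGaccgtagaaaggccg
CRELD2 (not called; plus strand, chr22:49918539-49918587): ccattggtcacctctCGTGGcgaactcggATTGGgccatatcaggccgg
HERPUD1 (not called; plus strand, chr16:56932010-56932050): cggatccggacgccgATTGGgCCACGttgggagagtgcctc

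HSP90B1 held 2 ERSE matches, at -194 to -176 on the gene's strand and at -89 to -71 on the opposite strand, counted from the annotated start as base 0. The HYOU1 stretch holds 2 ERSE-II matches, the first of which overlaps the UPRE. Of the 10 members with ERSE or ERSE-II in a window, 6 rose (HSPA5, HSP90B1, CALR, PDIA6, HYOU1 and SDF2L1), XBP1 fell, and CANX, CRELD2 and HERPUD1 were not called. Among the 21 tested genes outside the members with either element in a window, 4 were called higher and 4 lower (19% each). Of the 23 members whose windows held neither, 5 rose, 4 fell and 14 were not called. Over all 9769 tested genes with a window, 14.4% were called higher and 14.4% lower. HSPA5, HSP90B1, CALR, PDIA6 and HYOU1 were also among the 12 most abundant members per kilobase of transcript. Small changes are called more readily in abundant genes, and the share of this in the counts was not tested. DNAJB9, which fell with XBP1, had no full element in its window but 2 CCACG cores, in capitals here (plus strand, chr7:108569785-108569846): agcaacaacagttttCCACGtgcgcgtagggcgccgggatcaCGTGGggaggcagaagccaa. The bare core CCACG was in the windows of 42.1% of all genes.

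**Figure D2:**
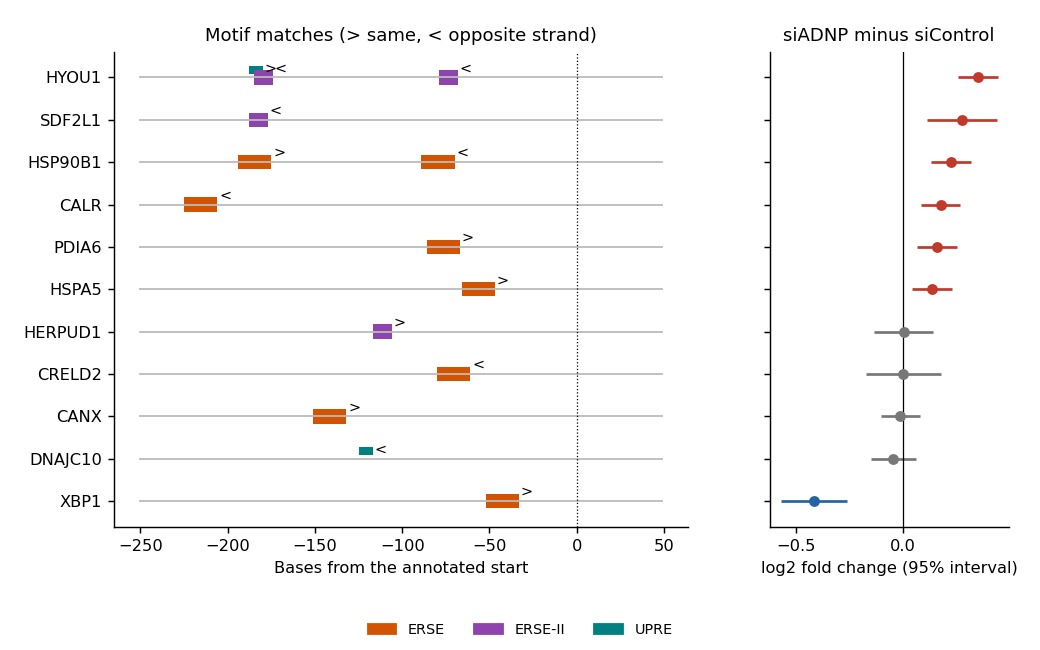
Left, matches to ERSE, ERSE-II and UPRE in 1 promoter window of each member that holds a match, in bases from the annotated start, with arrowheads for the strand. Right, log2 fold change of the same genes (siADNP minus siControl) with its 95% interval; members with ERSE lie on both sides of 0, from HSP90B1 at 0.23 to XBP1 at -0.42.

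Among the sensors and transcription factors, 1 of 4 rose and 1 fell. XBP1, the transcription factor downstream of ERN1, was at 38.3, 43.3 and 45.6 CPM with siADNP and at 51.5, 57.1 and 61.1 CPM with siControl. All siADNP libraries lay below all siControl libraries. The log2 fold change was -0.42 ± 0.08 (SE; adjusted p = 6.67e-05, edgeR).

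ERN1, the kinase and RNase that splices XBP1, was at 19.6, 20.3 and 20.3 CPM with siADNP and at 21.6, 17.1 and 16.0 CPM with siControl. The control libraries straddled the siADNP ones, and the log2 fold change of 0.14 was not called (95% interval -0.09 to 0.36, adjusted p = 0.379, edgeR). ATF6, the membrane-bound factor that is released by cleavage, was at 95.9, 96.7 and 103 CPM with siADNP and at 99.3, 106 and 96.2 CPM with siControl. The groups overlapped, with a log2 fold change of -0.03 (95% interval -0.15 to 0.09, adjusted p = 0.740, edgeR). ATF6B, the paralogue of ATF6, was at 41.4, 36.2 and 40.0 CPM with siADNP and at 31.3, 33.2 and 34.7 CPM with siControl. It rose with a log2 fold change of 0.24 ± 0.08 (SE; adjusted p = 0.0219, edgeR). The call ended in DESeq2's Wald test, where the value stayed at 0.24 (adjusted p = 0.114), and with a GC offset, where it was 0.17 (adjusted p = 0.121). It also ended without siADNP replicate 1 (0.0992) or 3 (0.0612) or siControl replicate 1 (0.107) or 2 (0.0511).

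Of the 9 Hsp70 and Hsp90 chaperones and their cochaperones, 5 rose, 1 fell and 3 were not called. HSPA5, the ER Hsp70 and the main brake on all sensors, was at 862, 879 and 913 CPM with siADNP and at 807, 824 and 777 CPM with siControl. The groups lay close together without overlap. Its log2 fold change was 0.14 ± 0.05 (SE; adjusted p = 0.0203, edgeR), and the call ended without siADNP replicate 3 (0.0707), siControl replicate 1 (0.0632) or siControl replicate 3 (0.134).

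HYOU1, a large Hsp70 that exchanges nucleotide on HSPA5, was at 379, 371 and 382 CPM with siADNP and at 294, 293 and 299.6 CPM with siControl. The 3 libraries of each group lay close together, far from the other group, and the log2 fold change was 0.35 ± 0.05 (SE; adjusted p = 2.67e-07, edgeR). HSP90B1, the ER Hsp90 (GRP94), was at 894, 932 and 942 CPM with siADNP and at 818, 756 and 794 CPM with siControl. It rose with a log2 fold change of 0.23 ± 0.05 (SE; adjusted p = 0.000289, edgeR).

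MANF, a secreted protein that also binds HSPA5 in the ER, was at 128, 94.0 and 106 CPM with siADNP and at 81.4, 85.1 and 78.7 CPM with siControl. It rose 1.33-fold (log2 fold change 0.42 ± 0.07 SE, adjusted p = 2.70e-05, edgeR), and the log2 value was 0.29 without siADNP replicate 1. It had the widest spread among the siADNP libraries, with a coefficient of variation of 15.7% against a median of 3.43% over the members. SDF2L1, a partner of the ER DnaJ proteins, was at 39.9, 36.2 and 39.6 CPM with siADNP and at 30.7, 30.7 and 34.1 CPM with siControl. Its log2 fold change was 0.28 ± 0.08 (SE; adjusted p = 0.00890, edgeR), and the call ended in DESeq2's Wald test at an equal value of 0.28 (0.0636) and with the GC offset, where the value was 0.15 (0.163).

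DNAJB9 (ERdj4), a cochaperone, was at 19.0, 18.2 and 19.0 CPM with siADNP and at 27.7, 26.1 and 20.9 CPM with siControl. All siADNP libraries were lower, although siControl replicate 3 lay nearer to them than to its own group. The log2 fold change was -0.42 ± 0.11 (SE; adjusted p = 0.00296, edgeR). The other DnaJ proteins, DNAJB11, DNAJC3 and DNAJC10, were not called, with log2 fold changes of 0.08, -0.09 and -0.04.

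**Figure D3:**
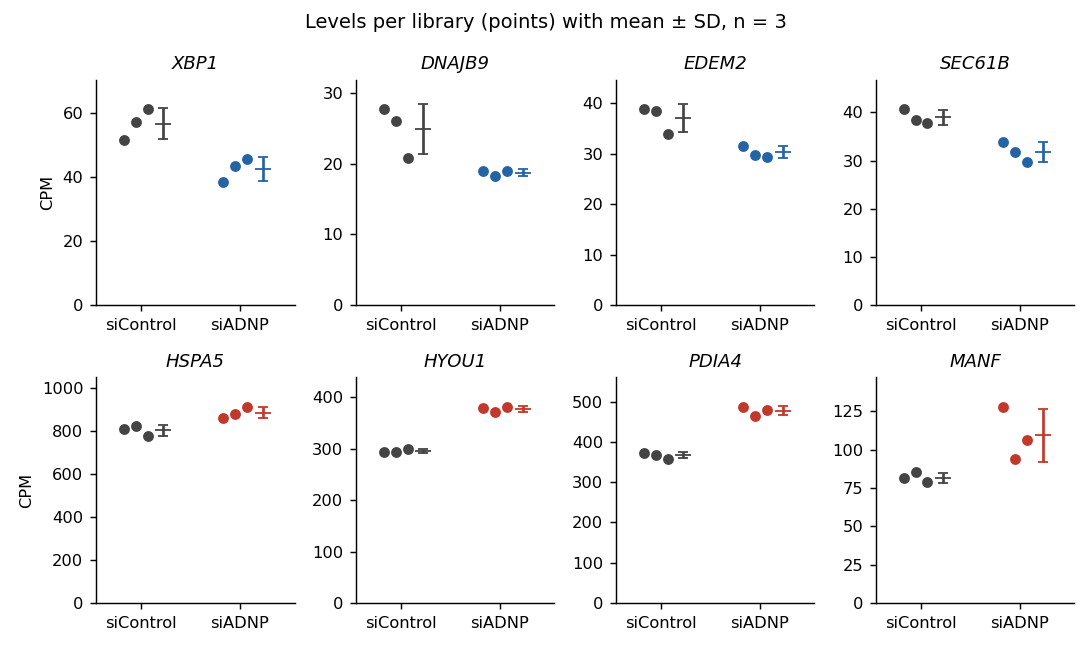
CPM of 8 members in each library, with the mean and SD (n = 3) beside the points; every axis starts at 0. XBP1, DNAJB9, EDEM2 and SEC61B were lower with siADNP and HSPA5, HYOU1, PDIA4 and MANF higher, with no overlap between the groups in any of the 8.

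In the lectin cycle, which holds glycoproteins in the ER until they fold, 1 of 3 members rose. CALR, the soluble lectin calreticulin, was at 657, 667 and 695 CPM with siADNP and at 601, 589 and 593 CPM with siControl, a log2 fold change of 0.18 ± 0.05 (SE; adjusted p = 0.00289, edgeR). CANX, its membrane-bound relative calnexin, was at 1152, 1216 and 1196 CPM with siADNP and at 1215, 1179 and 1199 CPM with siControl. The calnexin libraries were intermixed, and the 95% interval of its log2 fold change ran from -0.10 to 0.08 (adjusted p = 0.880, edgeR). UGGT1, which re-glucosylates misfolded glycoproteins, was not called either, with a log2 fold change of 0.04 (95% interval -0.06 to 0.15).

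Of the 8 disulphide isomerases, oxidases and related proteins, 4 rose, 1 fell and 3 were not called. PDIA4 (ERp72) was at 487.5, 465 and 480 CPM with siADNP and at 373, 368 and 359 CPM with siControl. It had the smallest p of all members, with a log2 fold change of 0.38 ± 0.05 (SE; adjusted p = 6.08e-08, edgeR). PDIA3 (ERp57), the isomerase that works with the lectins, was at 511, 490 and 524 CPM with siADNP and at 466, 439 and 436 CPM with siControl, a log2 fold change of 0.18 ± 0.05 (SE; adjusted p = 0.00296, edgeR). PDIA6 was at 300.4, 308 and 313 CPM with siADNP and at 273, 273 and 278 CPM with siControl, a log2 fold change of 0.16 ± 0.05 (SE; adjusted p = 0.00819, edgeR). In these isomerases every siADNP library lay above every siControl library.

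P4HB, the founding protein disulphide isomerase, was at 1281, 1247 and 1287 CPM with siADNP and at 1138, 1179 and 1131 CPM with siControl. Its log2 fold change was 0.15 ± 0.04 (SE; adjusted p = 0.0127, edgeR). The value shrank to 0.07 with the GC offset (adjusted p = 0.283), and the call also ended without siControl replicate 1 (0.0651) or replicate 3 (0.0788). ERP44, which retains the oxidase ERO1 in the early secretory pathway, went the other way, at 65.8, 56.3 and 63.3 CPM with siADNP and at 72.9, 68.6 and 73.7 CPM with siControl. Its log2 fold change was -0.22 ± 0.07 (SE; adjusted p = 0.0130, edgeR), and the call ended in DESeq2's Wald test, where the value stayed at -0.22 (0.0627). It also ended at -0.14 with the GC offset (0.123), at -0.15 without siADNP replicate 2 (0.124) and at -0.20 without siControl replicate 1 (0.0521). The oxidase ERO1L, the isomerase PDIA5 and the stress-induced protein CRELD2 were not called, with log2 fold changes of 0.05, -0.14 and 0.00310.

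The degradation genes gave no rise, 1 fall and 7 members not called among 8 tested. EDEM2, a mannosidase that marks glycoproteins for degradation, was at 31.6, 29.8 and 29.4 CPM with siADNP and at 38.8, 38.5 and 33.9 CPM with siControl, a log2 fold change of -0.29 ± 0.08 (SE; adjusted p = 0.00673, edgeR). Its relatives EDEM1 and EDEM3 had log2 fold changes of -0.07 and -0.05. HERPUD1, a stress-induced organizer of the degradation complex, was at 56.9, 61.5 and 63.3 CPM with siADNP and at 59.9, 64.1 and 56.5 CPM with siControl. Its libraries were intermixed, with a log2 fold change of 0.01 (95% interval -0.13 to 0.14, adjusted p = 0.962, edgeR). SYVN1 (HRD1), the ubiquitin ligase, and its partner SEL1L stood at -0.03 and 0.03, and the channel proteins DERL1 and DERL2 at 0.08 and 0.04.

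Of the translocon and other membrane proteins, SEC61B, the beta subunit of the protein-conducting channel, fell. It was at 33.9, 31.7 and 29.8 CPM with siADNP and at 40.7, 38.5 and 37.7 CPM with siControl, a log2 fold change of -0.29 ± 0.08 (SE; adjusted p = 0.00574, edgeR). SEC61A1, the pore-forming subunit, was not called, with a log2 fold change of -0.05 (95% interval -0.15 to 0.05). WFS1 (wolframin) was at 62.8, 59.7 and 58.6 CPM with siADNP and at 55.9, 51.3 and 50.5 CPM with siControl. It rose with a log2 fold change of 0.20 ± 0.07 (SE; adjusted p = 0.0248, edgeR). The call ended in DESeq2's Wald test, where the value stayed at 0.20 (adjusted p = 0.118), and with the GC offset, where it fell to 0.10 (adjusted p = 0.298). It also ended without siADNP replicate 1 (0.0954), siControl replicate 2 (0.0930) or siControl replicate 3 (0.103).

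The 18 members not called had log2 fold changes between -0.14 and 0.14. For 16 of them the 95% interval lay within 1.2-fold of control in both directions, the exceptions being PDIA5 and ERN1, which had few reads. Transcript length was that of the longest coding transcript in the consensus coding sequence (CCDS) set, or otherwise of the longest coding transcript. Per kilobase of transcript, P4HB was the most abundant member at 441 ± 9.98 CPM per kb in siControl (SD, n = 3). It was followed by CALR at 312 ± 3.21, CANX at 281 ± 4.18, HSP90B1 at 276 ± 10.9 and HSPA5 at 205 ± 6.10. CANX and HSP90B1 differed by less than the SD of HSP90B1. ERN1 was the least abundant of the tested members at 2.32 ± 0.377 CPM per kb. Of the 12 most abundant members per kb, 9 rose and SEC61B fell, and of the other 23, 3 rose and 4 fell. Abundant genes have smaller errors, so their small changes are called more readily, and the share of this in the count was not tested.

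**Figure D4:**
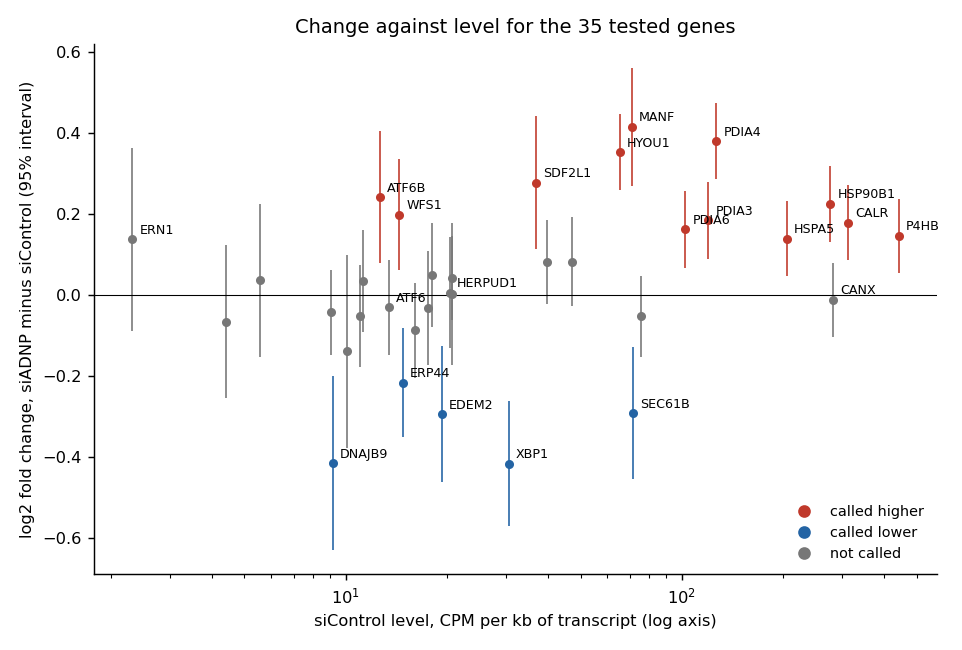
Log2 fold change (siADNP minus siControl) with its 95% interval against the siControl level in CPM per kb of transcript, on a log axis, for the 35 tested members. Intervals narrow to the right, where PDIA4, HSP90B1, CALR and P4HB lie above 0 and CANX on it.

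Summed over all members, the level was 8547, 8629 and 8776 CPM with siADNP and 8050, 7911 and 7902 CPM with siControl, with no overlap. The members' share of all gene reads was 0.855% to 0.875% against 0.784% to 0.799%. HSP90B1, P4HB, PDIA4, HYOU1 and HSPA5 together gained 530.3 CPM, 76.2% of the net gain of 696 CPM. By role, the chaperones stood at 113% of control and the disulphide enzymes at 113%, without overlap between the groups. The summed degradation genes stood at 99.8%, the lectin cycle at 104%, the sensors at 96.1% and the translocon group at 97.4%, each with overlapping groups.

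GC content moved with the direction of change over the whole table, and values for the members are given beside it. The median transcript was 54.6% GC among all genes called higher, 43.2% among all called lower and 49.2% among those not called. Among the members the median was 54.1% in the 12 that rose (42.4% to 65.5%), 48.6% in the 5 that fell and 44.8% in those not called. An offset was used that removes each library's trend on GC content. With it, 8 members rose and 4 fell, where 1698 of all 12489 tested genes rose and 1560 fell. Among the members, the calls lost were those of SDF2L1, WFS1, P4HB, ATF6B and ERP44. The 4 rises lost were the members with the highest GC content of those that rose. HSP90B1, PDIA3, PDIA6 and HSPA5, the members of lowest GC content among those that rose, kept their calls with larger values, HSPA5 at 0.16 and HSP90B1 at 0.28. XBP1 stayed at -0.42, PDIA4 at 0.35, MANF at 0.37 and HYOU1 at 0.30.

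**Figure D5:**
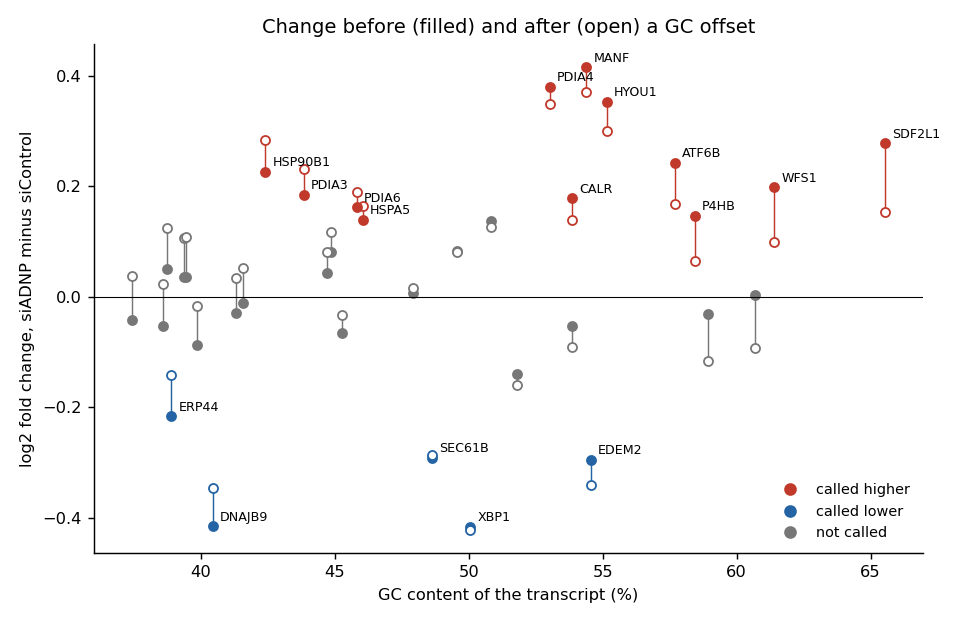
Log2 fold change of the 35 tested members against the GC content of the transcript, before (filled) and after (open) removal of each library's trend on GC content. The members with the highest GC content, SDF2L1, WFS1, CRELD2 and P4HB among them, move downward, while XBP1 and SEC61B near the middle hardly move.

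The other genes of the same pathways were described from 5 lists of 116 genes, 108 of them tested. Of these, 23 rose, 18 fell and 67 were not called, with a median log2 fold change of 0.04. That is 21.3% higher and 16.7% lower, where 14.6% of all 12489 tested genes rose and 13.7% fell. With upper-quartile scaling 29 of the other ER genes rose and 13 fell. Over all tested genes 2096 rose and 1379 fell with that scaling, while the members stayed at 12 and 5. Among sensors and regulators 4 of 17 rose and 4 fell. MBTPS1, the protease that makes the first cut in ATF6, was at 217, 235 and 242 CPM with siADNP and at 179, 177 and 160.2 CPM with siControl, a log2 fold change of 0.43 ± 0.05 (SE; adjusted p = 1.11e-07, edgeR). MBTPS2, which makes the next cut, rose with 0.23. EIF2AK3, the PERK kinase, was not called, at 17.5, 19.1 and 22.2 CPM with siADNP and 19.7, 22.5 and 20.4 CPM with siControl (log2 fold change -0.10, adjusted p = 0.532, edgeR).

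ATF4, the factor whose translation PERK favours, was at 638, 554 and 634 CPM with siADNP and at 480.3, 532 and 451 CPM with siControl. Its log2 fold change was 0.32 and that of its target TRIB3 0.46, both called higher. PPP1R15A and PPP1R15B, on the same list, were not called. Their log2 fold changes were -0.18 (adjusted p = 0.115, edgeR) and 0.00487 (adjusted p = 0.956, edgeR). DDIT3 (CHOP), the pro-apoptotic factor of the PERK branch, was at 17.9, 19.4 and 21.7 CPM with siADNP and at 15.6, 18.7 and 13.3 CPM with siControl. The groups overlapped, and its log2 fold change of 0.29 missed the threshold (adjusted p = 0.0603, edgeR). It passed without siADNP replicate 1 (0.0468), without siControl replicate 2 (0.0128) and in limma on the deposited transformed values (0.0475). It also passed with upper-quartile scaling or library totals, and missed in the other 11 of 16 alternatives. The genes that fell on the list of sensors and regulators were SERP1, CREB3L2, CREB3 and BHLHA15, with log2 fold changes of -0.34, -0.20, -0.25 and -0.73. BHLHA15 rested on few reads, 16 to 18 in the siADNP libraries and 22 to 40 in the siControl libraries (adjusted p = 0.0371, edgeR).

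Other folding and disulphide enzymes gave 8 rises and 3 falls among 31. RCN1, a calcium-binding reticulocalbin, and the prolyl isomerase FKBP2 were called higher at 0.33 and 0.34 on the log2 scale, and the ER membrane cochaperone DNAJC1 was called lower at -0.38. In glycan trimming and quality control, 3 of 12 rose and 1 fell. MOGS, the glucosidase that takes the first glucose off N-glycans, was at 68.7, 72.8 and 66.3 CPM with siADNP and at 47.4, 45.0 and 50.9 CPM with siControl, a log2 fold change of 0.54 ± 0.07 (SE; adjusted p = 1.15e-07, edgeR). The cargo lectin LMAN2 rose with 0.29 and the cytosolic glycanase NGLY1 fell with -0.29, the latter not without siControl replicate 1 (adjusted p = 0.0552).

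The other degradation genes gave 1 rise and 6 falls among 23, where the falls include TRAM1, a translocation protein on that list, with -0.15. UFD1L, a cofactor of the extracting ATPase VCP, was at 114, 108 and 119 CPM with siADNP and at 138, 132 and 133 CPM with siControl, a log2 fold change of -0.24 ± 0.05 (SE; adjusted p = 0.000886, edgeR). The conjugating enzyme UBE2J1 fell with -0.28, and VCP itself with -0.13. HERPUD2, a relative of HERPUD1, was the rise, with 0.70. Translocation and glycosylation genes gave 7 rises and 4 falls among 25. SSR3, a subunit of the translocon-associated TRAP complex, fell with -0.29, while TRAM2 and SEC61A2, a weakly expressed paralogue of SEC61A1, rose with 0.40 and 0.76.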

How the data were processed

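The count table holds reads per gene symbol as deposited by the authors, with no normalization. STAR, HTSeq and DESeq2 on hg19 are named in the submitters' processing notes, while no source used here gives the annotation or the strand setting. Reads of overlapping genes may therefore not be separated: 12 tested members overlap another RefSeq gene, among them the called genes PDIA3, PDIA6, EDEM2, HYOU1 and ERP44. A table of log2-like variance-stabilized values, deposited by the authors, was used only in an alternative test. Of all reads, 53.5% to 55.7% fell outside features and were left out.

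Counts were fitted over all genes with edgeR 4.0.16 in R 4.3.3 (TMM scaling, filterByExpr with a minimum count of 10, glmQLFit and glmQLFTest, two-sided, siADNP minus siControl, Benjamini-Hochberg over 12489 genes, called at an adjusted p under 0.05). Standard errors are the log2 fold change over the square root of F, and levels are CPM with TMM scaling. Alternatives were other scalings and filters, DESeq2 1.42.0, limma 3.58.1 on the deposited values, a replicate block, a GC offset and leaving out each library. Transcript length and GC content came from GENCODE 29, for 96.9% of tested genes. The fits were tested on simulated data. Figures were drawn with matplotlib 3.10.9.

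The members and lists were chosen with earlier results of these data known. Values in each library are given for HSPA5, XBP1, ATF6, ATF6B, ERN1, every member that fell and, per role, up to 4 rises with the smallest p. Of each list of other ER genes, the 3 called genes with the smallest p are named, with EIF2AK3, ATF4 and DDIT3. The values of CANX and HERPUD1 in each library were chosen after they were seen. The log2 fold changes of MBTPS2, PPP1R15A, PPP1R15B, VCP, TRAM1 and the genes that fell on the list of sensors and regulators were also chosen after they were seen.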

Additional observations from a re-analysis of the deposited data

How the results depend on the processing

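Over 16 alternatives the members called higher numbered 8 to 12 and those called lower 4 or 5, all of them among those called in the same direction here. Leaving out each library in turn gave 9 to 12 rises and 4 to 5 falls, and the GC offset 8 and 4. Over all genes, leaving out each library gave 1470 to 1655 rises and 1307 to 1508 falls, and the GC offset 1698 and 1560. Of the 17 called members, 11 passed in all 16 alternatives, and the exceptions were HSPA5, SDF2L1, P4HB, ATF6B, WFS1 and ERP44. Of 848 values of single genes under alternatives, 813 kept their side of the threshold, 30 lost the call and 5 gained it. In genes called in the main or the alternative fit, 0 values changed sign. Sign changes of genes called in neither fit, such as ATF6 (-0.06 to 0.03 over all fits), count among the 813. DESeq2's Wald test called 11 of the other ER genes lower against 18, and 1106 higher and 1079 lower over all genes against 1824 and 1714. Without 1 library the other ER genes called lower numbered 10 to 15, with 10 without siADNP replicate 1 and 11 without siControl replicate 1.

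The replicate numbers share no stated culture or day, and the deviations of same-numbered libraries correlated with r = 0.0238, -0.0352 and -0.0290, so they were not taken as pairs. With the replicate block 11 members rose and 5 fell, HSPA5 not passing (adjusted p = 0.0518), and over all genes 1694 rose and 1542 fell. The block combined with the GC offset left 8 rises and 4 falls among the members, and 1567 and 1400 over all genes. The cause of these differences was not tested. Depth limits ERN1, PDIA5, DNAJB9, DERL2 and EDEM1 most, at under 30 CPM.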

Other observations

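Among the other ER genes, 7 of the 96 with a promoter window held the UPRE letters TGACGTGG. Of these, TXNDC11, UBE2J1, VCP, SEC62 and SSR3 were called lower with siADNP, with log2 fold changes of -0.32, -0.28, -0.13, -0.19 and -0.29, while TXNDC5 and SSR4 were not called, at -0.14 and -0.06. Among the members, HYOU1 rose and DNAJC10 was not called. Of the 2 other ER genes with an ERSE match, SERP1 fell with -0.34 and ERO1LB was not called, at 0.19. Over all 124 tested genes with UPRE in a window, 33 were called lower and 17 higher, that is 26.6% and 13.7%, where 14.4% of the 9769 tested genes with a window were called lower and 14.4% higher. Without the members and the listed ER genes the share called lower was 24.3% of 115 genes. For the bare core CCACG, also without the members and the listed ER genes, it was 14.2% of 5607 genes. These counts were looked at after the values of the ER genes were seen and are given as a description, with no test.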
